A study of Saccharomyces cerevisiae with 3 samples.

Results

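The 33 genes described here encode the enzymes that make ergosterol and fatty acids in the budding yeast Saccharomyces cerevisiae, with the enzymes that esterify sterols and 3 transcription factors. They were taken as the named genes of these pathways that have a single-gene probe set on the array, and all 33 had one among the 5656 genes measured (50 of 6504 single-gene probe sets). By role, 9 belong to the mevalonate steps, 14 to the steps from squalene synthase to ergosterol, 2 to sterol esterification and 5 to fatty acid synthesis, and 3 are regulators. Total RNA came from 3 independent steady-state chemostat cultures, which form 1 group, and each was hybridized to its own Affymetrix array. Glucose at 7.5 g per litre limited growth, and cells grew at pH 5.0 and 30 °C with a dilution rate of 0.10 per h. The mineral medium also held, per litre, ammonium sulphate at 5.0 g, potassium phosphate at 3.0 g, magnesium sulphate at 0.5 g and zinc sulphate at 4.5 mg. All cultures were sparged with air and held dissolved oxygen over 80% of saturation. The labels read here, in which the growth protocol text is cut, do not name the strain. The design holds no contrast between conditions, so no p-value is given, and the questions are how bright these genes were and how closely the 3 cultures matched.

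Yeast makes ergosterol, the main sterol of its membranes, from acetyl-CoA. The mevalonate steps build farnesyl pyrophosphate, squalene synthase joins it head to head, and a long series of endoplasmic reticulum enzymes turns squalene into ergosterol. Several of these enzymes use molecular oxygen, as does the fatty acid desaturase Ole1, which is why yeast without air has to take up sterols and unsaturated fatty acids. The zinc cluster factors Upc2 and Ecm22 activate many of the ERG genes when sterol runs low.

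Signals are the deposited intensities on a linear scale and are given as mean ± SD over the 3 cultures (n = 3). The arrays do not share a scale. The typical gene read 2.31-fold higher in culture 2 and 1.73-fold higher in culture 3 than in culture 1, so every SD holds an array-wide difference. The hybridization control CreX, by its probe set for the 3-prime end, read 1652, 2041 and 1299 in cultures 1, 2 and 3 and so did not carry that shift. A gene is called bright when its mean lay over the 90th percentile of all genes (589.6) and dim when it lay under the 30th (48.3). Brightness is a property of a probe set and gives no order of transcript abundance between genes. The sense-strand controls, for which the sample holds no target, read up to 26.3, so that signals of this size can be nonspecific. Of genes known to follow oxygen supply, the 5 aerobic ones (COX5A, CYC1, PET9, SOD2 and CTA1) were bright, and 5 of 8 hypoxic ones were dim. Since levels of different probe sets are not comparable and no other oxygen supply was measured, these readings do not test the aerobic label.

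Of the 33 sterol and fatty acid genes, 14 were bright and 3 were dim, where these limits by construction give 10% and 30.0% of all genes. The bright genes were 4 of 9 in the mevalonate steps, 6 of 14 from squalene synthase to ergosterol and 4 of 5 in fatty acid synthesis. The dim ones were the mevalonate kinase gene ERG12, the sterol acyltransferase gene ARE2 and the regulator gene UPC2. ERG12 was dim by its kept probe set (mean 46.5), while 2 of its 3 others had means of 98.2 each, above the dim limit. ARE2 and UPC2 lay at or under the sense-strand controls in all 3 cultures, as did 12.1% of all genes, so their presence and their changes cannot be read from these arrays.

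**Figure D1:**
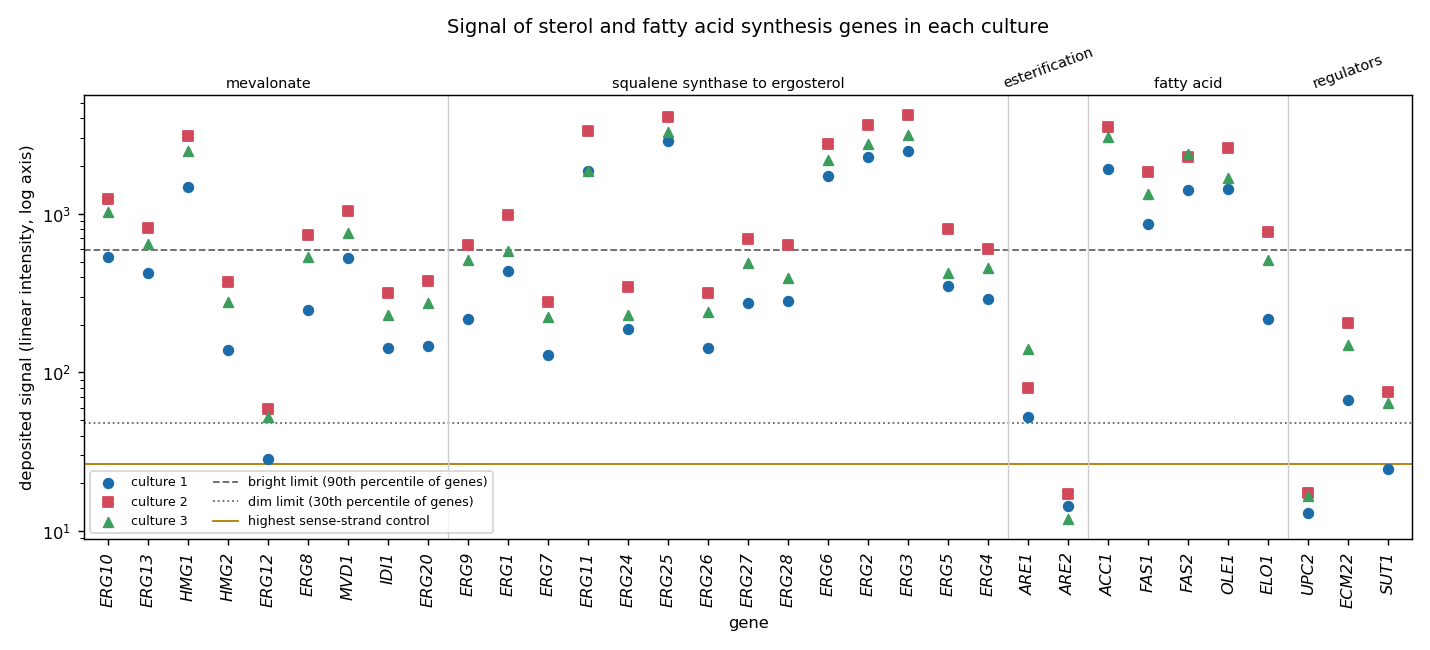
Deposited signal of each of the 33 genes (log axis, linear intensity units) in cultures 1, 2 and 3, grouped by role, with 1 point per culture. The dashed line marks the bright limit of 589.6, the dotted line the dim limit of 48.3 and the solid line the highest sense-strand control at 26.3. Culture 1 gave the lowest point for 32 of the 33 genes, the exception being ARE2, which lies under the control line with UPC2.

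Mevalonate genes ranged from bright to dim and, by their kept probe sets, followed the array-wide shift closely. HMG1, the main HMG-CoA reductase and the step that sets the flux of the pathway, read 1470.0, 3097 and 2498 in cultures 1, 2 and 3 (2355 ± 823). Its paralogue HMG2, whose protein is known for its regulated degradation, read 139, 373 and 279 (264 ± 118). Culture 1 was lowest and culture 2 highest for both, as on the arrays as a whole. The acetoacetyl-CoA thiolase gene ERG10 read 534, 1243 and 1032. ERG13, which encodes HMG-CoA synthase, was bright at 626 ± 194, and so was MVD1, the mevalonate pyrophosphate decarboxylase gene, at 775 ± 258. The phosphomevalonate kinase gene ERG8 read 249, 732 and 533, the isopentenyl diphosphate isomerase gene IDI1 142, 318 and 229, and the farnesyl pyrophosphate synthase gene ERG20 148, 375 and 275. ERG12, the dim gene of the group, read 28.3, 59.0 and 52.2, all above the sense-strand controls.

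The genes from squalene synthase to ergosterol included no dim member. The 6 bright ones were ERG1, ERG11, ERG25, ERG6, ERG2 and ERG3. ERG25, the methyl sterol oxidase gene, read 2889, 4069 and 3279.8 in cultures 1, 2 and 3, and the sterol desaturase gene ERG3 read 2483, 4214 and 3132. The sterol isomerase gene ERG2 (2898 ± 686) and the sterol methyltransferase gene ERG6 (2230.3 ± 520.0) were also bright. ERG11, the cytochrome P450 that demethylates lanosterol and is the target of azole drugs, read 1849, 3335 and 1856. ERG1, the squalene epoxidase gene and the first step to use oxygen, read 439, 978 and 579, its mean of 666 ± 279.9 just passing the bright limit. ERG7, for lanosterol synthase, had the lowest mean of the group and read 129, 277 and 225, above the dim limit in every culture.

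The remaining genes of these steps lay between the limits. ERG5, the other cytochrome P450, which introduces the side-chain double bond, read 349.6, 805 and 423. ERG9, for squalene synthase, read 218, 638 and 514, and ERG24, for a sterol reductase, read 189, 348 and 231. The partners of ERG25 are the dehydrogenase gene ERG26, the ketoreductase gene ERG27 and the scaffold gene ERG28. They read 233 ± 88.9, 484 ± 211 and 438 ± 180.5, with the lowest signal in culture 1 and the highest in culture 2. ERG26 read 142, 319 and 239, in step with the array-wide shift. ERG4, the final reductase gene, read 449 ± 156.

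Fatty acid synthesis genes were bright except for ELO1, judged by the kept probe sets. Of the 7 other probe sets each of FAS1 and FAS2, 2 and 1 passed the bright limit, and with the mean over probe sets 12 of the 33 genes were bright in place of 14. Acetyl-CoA carboxylase, encoded by ACC1 and the committed step, read 1923, 3548 and 3057. FAS1 and FAS2, for the beta and alpha subunits of the fatty acid synthase, read 858, 1831 and 1341, and 1418, 2288 and 2387. In FAS2, alone among these 5 genes, culture 3 was the highest. OLE1, the desaturase gene that makes unsaturated fatty acids with molecular oxygen, read 1433, 2604 and 1677. ELO1, which extends medium-chain fatty acids, read 216, 765 and 512, a 3.54-fold step from culture 1 to culture 2.

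None of the esterification and regulator genes was bright. ARE1, a sterol acyltransferase gene known as the more active of the pair when oxygen is short, read 52.5, 79.9 and 141, with culture 3 the highest. ARE2, the acyltransferase gene known as the main one in air, read 14.3, 17.2 and 11.9. UPC2 read 12.9, 17.5 and 16.6, and its paralogue ECM22 read 67.5, 205 and 149. SUT1, a factor that promotes sterol uptake in cells without oxygen, read 24.6, 75.7 and 64.2, under the sense-strand controls in culture 1. A probe set that reads low does not show that its transcript is rare.

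To compare the cultures, arrays were brought to a common median, that is, each array was shifted on the log2 scale so that the typical gene that is not dim had a deviation of 0 from its 3-culture mean. Of the 30 lipid genes that were not dim, 1 then ranged over more than 2-fold between its highest and lowest culture, against 3.49% of the 3959 such genes on the array. As deposited, 19 of the 30 did, against 75.5% of all. More than 1.5-fold at the common median were 5 of the 30 (ERG11, ERG25, ARE1, ELO1 and SUT1), against 18.2%. After cyclic loess this count was 3, against 17.3%, with ERG11 at 0.54 and ERG25 at 0.40 (log2) no longer in it, and after quantile normalization it was 2, against 17.7%. The range of SUT1 was 0.59, but 0.49 with signals floored at the highest sense-strand control and 0.29 with log2(signal + 16). The median range was 0.37 (log2) over these 30 genes and 0.34 over all. Without culture 1 the range was 0.10 in place of 0.71 for ERG25 and 0.17 in place of 0.62 for ELO1. It was 0.18 in place of 0.59 for SUT1 and 0.22 in place of 0.57 for OLE1. Culture 1 was the highest or the lowest in each of these genes, so leaving it out narrows their ranges in large part by construction. The same holds below wherever the highest or lowest culture of a gene or ratio is left out.

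The gene past 2-fold was ARE1, whose range of 1.23 (log2), or 2.35-fold, was wider than that of 98.2% of genes. Its deviations were -0.017 in culture 1, -0.62 in culture 2 and 0.61 in culture 3, so cultures 2 and 3 lay far apart with culture 1 between them. Without culture 2 the range was 0.62, and without culture 3 it was 0.61. The narrowest range at the common median was that of ERG26, at 0.037, and IDI1 and ERG7 followed with 0.11 each. After cyclic loess these ranges were 0.077, 0.15 and 0.12, and that of FAS1 was narrower at 0.053. After quantile normalization ERG26 ranged over 0.073 and FAS1 over 0.019. In ERG26, IDI1 and ERG7 the spread over cultures was nearly all array-wide.

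**Figure D2:**
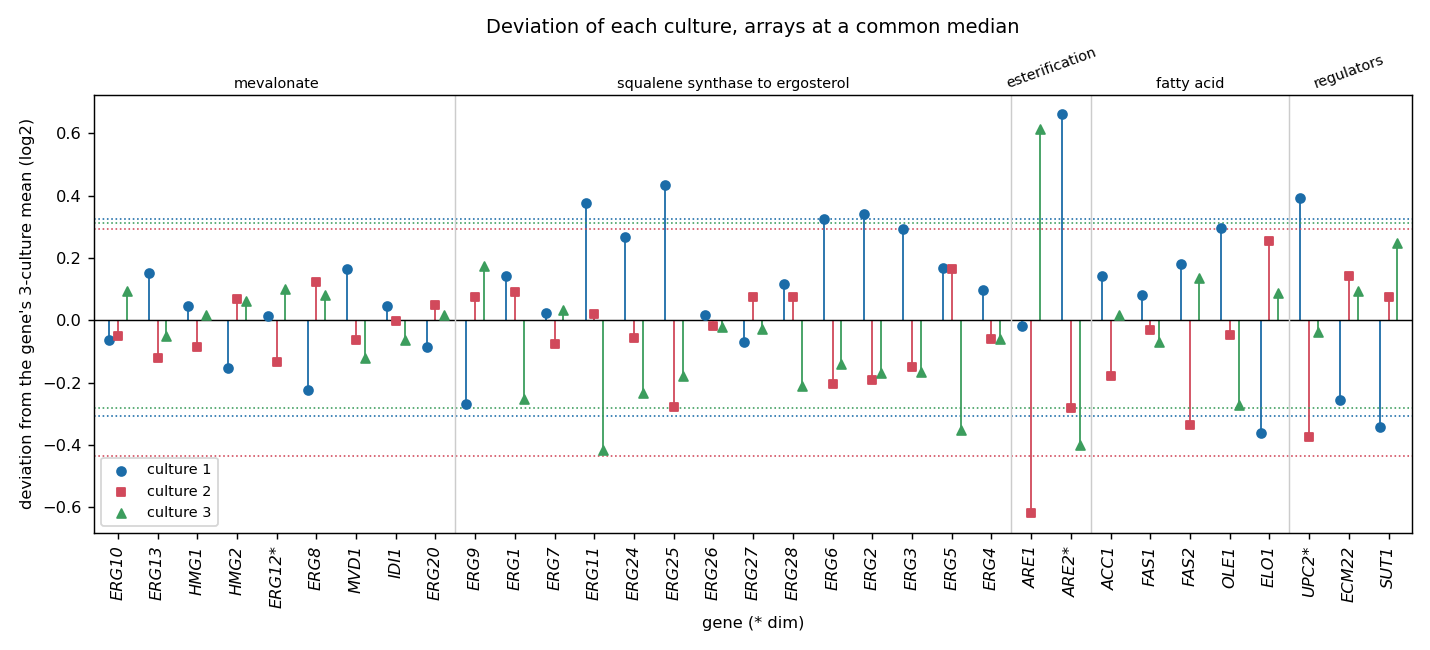
Deviation of each culture from the gene's 3-culture mean (log2, arrays at a common median) for the 33 genes, with 1 marker per culture and an asterisk at the 3 dim genes. Dotted lines in the colour of a culture mark the 5th and 95th percentile of its deviations over all genes that are not dim. Among the genes that are not dim, ERG11 and ERG5 reach below those lines in culture 3, at -0.42 and -0.35. ARE1 reaches above them there, at 0.61. In culture 1 ERG25, ERG11 and ERG2 reach above, at 0.43, 0.37 and 0.34, and ELO1 and SUT1 below, at -0.36 and -0.34. In culture 2 ARE1 reaches below, at -0.62.

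At the common median the median range was 0.19 in the mevalonate genes, 0.45 from squalene synthase to ergosterol and 0.52 for fatty acids. It was 0.34 over all genes and 0.46 over the 57 genes above the 99th percentile of mean signal. Single ranges depend on the scaling. After cyclic loess ERG3, ERG2 and FAS1 ranged over 0.16, 0.25 and 0.053 in place of 0.46, 0.53 and 0.15. ERG24 and ELO1 then ranged over 0.54 and 0.64 in place of 0.50 and 0.62. Whether the roles differ in spread was not tested. The 8 mevalonate genes that were not dim had median deviations of -0.0097, -0.026 and 0.016 in cultures 1, 2 and 3. By their kept probe sets none of them ranged over more than 0.35, the value of ERG8. ERG12 is not among them, since its kept probe set was dim, but other ERG12 probe sets that were not dim ranged over 0.98 and 0.38. In culture 1 HMG1 deviated by 0.047, but by -0.12 after cyclic loess and -0.11 after quantile normalization, and HMG2 by -0.15, -0.13 and -0.14. The log2 ratio of their signals, which a single factor per array leaves unchanged, was 3.41, 3.05 and 3.16 in cultures 1, 2 and 3, a range of 0.35, and without culture 1 that range was 0.11. After cyclic loess the ratio was 3.23, 3.14 and 3.27, a range of 0.12, with culture 3 in place of culture 1 the highest. This ratio compares 2 probe sets, so only its change between cultures can be read.

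The genes from squalene synthase to ergosterol had median deviations of 0.15 in culture 1, -0.037 in culture 2 and -0.17 in culture 3, where the median over all genes is 0. In culture 1, 12 of the 14 lay above 0, and in culture 3, 2 of the 14 did. Culture 1 was the highest for 11 of the 14, against 32.1% of all genes, and culture 3 the lowest for 8 of the 14, against 31.0%. The median in culture 3 was -0.070 after cyclic loess, -0.064 after quantile normalization, -0.051 against brightness bands and -0.0031 without culture 1. That in culture 1 was 0.11, 0.12 and 0.10 under these 3 scalings and 0.066 without culture 3. ERG9, the first enzyme of the group, went the other way, with -0.27 in culture 1 and 0.17 in culture 3.

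Brightness moves with these deviations. Over the 57 genes above the 99th percentile of mean signal the median deviations in cultures 1, 2 and 3 were 0.27, -0.18 and -0.13, and over the 226 genes between the 95th and 99th they were 0.12, -0.059 and -0.085. Among bright genes culture 1 was the highest in 56.4% and culture 3 the lowest in 40.1%. ERG25, ERG3 and ERG2 lie in the top band, with deviations in culture 1 of 0.43, 0.29 and 0.34 and in culture 3 of -0.18, -0.17 and -0.17. Relative to the median of their band these become 0.16, 0.024 and 0.071 in culture 1 and -0.046, -0.034 and -0.039 in culture 3. ERG6, in the band below, read 0.20 in place of 0.32 in culture 1. The part of brightness in these deviations was not tested.

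**Figure D3:**
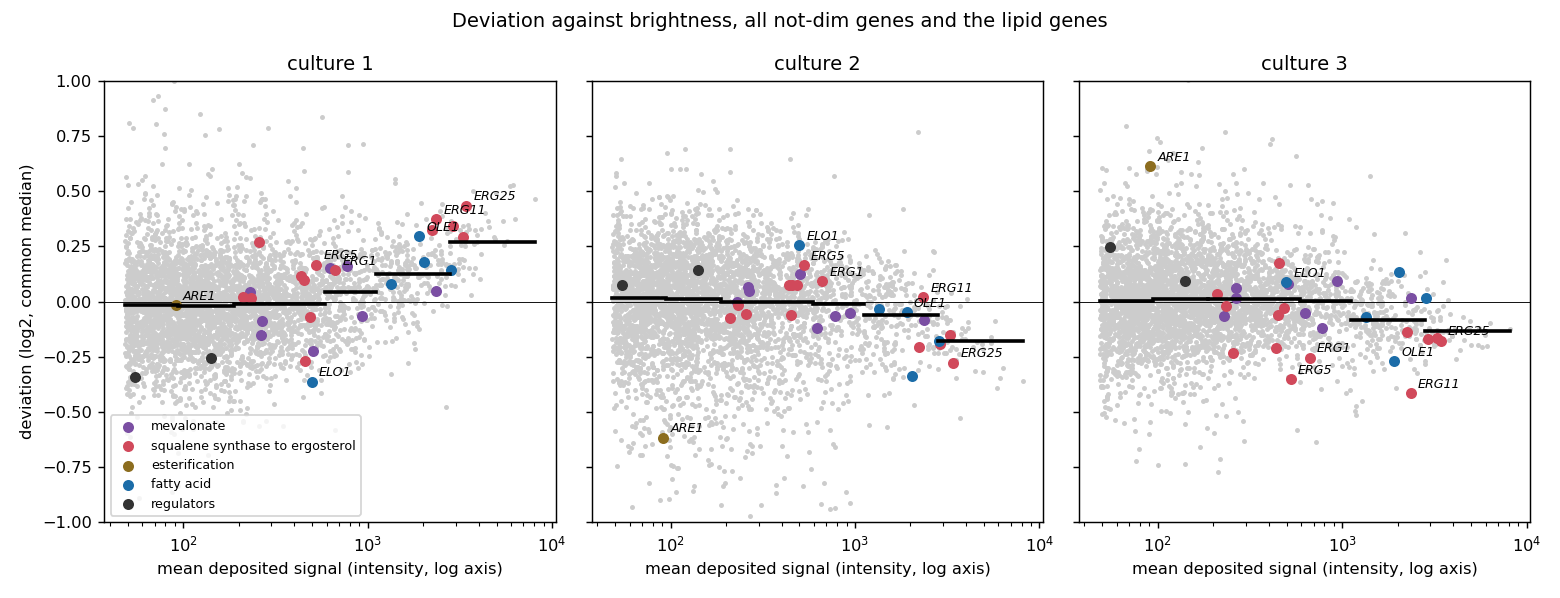
Deviation (log2, common median) against mean deposited signal (log axis) in cultures 1, 2 and 3, with grey points for all genes that are not dim and coloured points for the lipid genes by role. Black bars are the median deviation within 6 bands of brightness, at 0.27 in culture 1 and -0.13 in culture 3 for the top band, and 7, 11 and 4 genes in cultures 1, 2 and 3 lie outside the axis. In culture 3 ERG11, ERG5, ERG1 and OLE1 lie below the bar of their band.

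Other genes lay lower in culture 3 than the median of their brightness band. At the common median ERG11 gave 0.37, 0.019 and -0.42 in cultures 1, 2 and 3. As deposited its signals in cultures 1 and 3 were almost equal (1.00-fold) while the typical gene was 1.73-fold higher in culture 3. ERG5 deviated by 0.17, 0.16 and -0.35, so culture 3 stood below the others, and without it the range was 0.0077. The range of ERG11, 0.79 over all cultures, was 0.36 without culture 3 and 0.43 without culture 1. That of ERG1, 0.40 over all cultures, was 0.055 without culture 3 and 0.34 without culture 1. Leaving out the lowest culture narrows a range in large part by construction. ERG1 gave 0.14, 0.091 and -0.25, and ERG28 gave 0.12, 0.074 and -0.21. ERG24 gave 0.27, -0.056 and -0.23, and OLE1 gave 0.30, -0.048 and -0.27. In each of these genes culture 3 was the lowest. These 6 genes were picked after their values were seen, as all those under -0.2 in culture 3: they are 5 of the 14 genes from squalene synthase to ergosterol, 1 of 5 for fatty acids and none of the 8 mevalonate genes that were not dim. Under -0.2 in culture 3 were 11.4% of all genes and 11.7% of bright genes.

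Relative to the median of their brightness band the deviations in culture 3 were -0.33 for ERG11, -0.37 for ERG5, -0.25 for ERG1 and ERG24, -0.22 for ERG28 and -0.19 for OLE1. In their bands 1.33% of genes lay as low as ERG5 and 1.77% as low as ERG11. After cyclic loess, which removes trends with brightness, they read -0.35 for ERG5, -0.33 for ERG11, -0.25 for ERG24, -0.24 for ERG1, -0.22 for ERG28 and -0.20 for OLE1, and culture 3 was again the lowest for 8 of the 14 genes from squalene synthase to ergosterol, against 31.0% of all. Each value in culture 3 comes from 1 array, and whether these genes differ between cultures beyond the spread of single arrays was not tested.

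The oxygen-requiring enzymes are ERG1, ERG11, ERG25, ERG3, ERG5 and OLE1. All 6 deviated upwards in culture 1 and downwards in culture 3, with medians of 0.30 and -0.26, or 0.15 and -0.22 after cyclic loess. By the centring, 1979 of the 3959 genes that are not dim lay above 0 in each culture. The share of all genes with both directions was not counted. Outside this list, ERG24, ERG28, ERG6, ERG2, ERG4 and ERG26 had the same directions, while ERG9, ERG7 and ERG27 did not. ERG1, ERG11, ERG5 and OLE1 are also among the genes picked above for their low values in culture 3. Of the 6 oxygen-requiring genes 5 were bright. All genes between the 90th and 95th percentile of mean signal had median deviations of 0.044 in culture 1 and 0.00085 in culture 3. Between the 95th and 99th these medians were 0.12 and -0.085, and above the 99th 0.27 and -0.13. The hypoxic genes that were not dim, CYC7, TIR1 and TIR2, read -0.32, -0.42 and 0.051 in culture 3, so TIR2 did not lie low with the others. In the 5 bright aerobic genes the median there was -0.11. Dissolved oxygen by culture was not analysed here, and its part in these values was not tested.

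Fatty acid genes did not share a direction. Their median deviations were 0.14, -0.048 and 0.017 in cultures 1, 2 and 3. The value in culture 1 changed sign with the scaling, to -0.028 after cyclic loess, -0.015 after quantile normalization and -0.042 against the brightness bands. ELO1 deviated by -0.36, 0.26 and 0.087, and 2.96% of genes lay as low in culture 1. FAS2 deviated by 0.18, -0.34 and 0.14, and ACC1 by 0.14, -0.18 and 0.017. FAS1 deviated by 0.081, -0.032 and -0.070. The log2 ratio of FAS1 over FAS2 was -0.72, -0.32 and -0.83 in cultures 1, 2 and 3, a range of 0.51, and 0.11 without culture 2.

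Several probe sets exist for 3 of the genes, and in each of the 3 some disagree with the one kept. FAS1 has 7 further probe sets. The kept FAS1 probe set deviated by 0.081 in culture 1, but all 7 others lay below 0 there, from -1.08 to -0.25 with a median of -0.47. FAS2 also has 7 further probe sets, of which 5 were not dim. They deviated by -0.69 to -0.010 in culture 1 and by 0.15 to 0.56 in culture 3, where none lay below 0. One FAS2 probe set read only 6.84, 4.78 and 5.62, under the sense-strand controls in all cultures. The FAS2 probe set with the last number of these 7 read 690, 1439 and 1335. With the mean over probe sets in place of the kept one, the fatty acid median in culture 1 was -0.18.

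**Figure D4:**
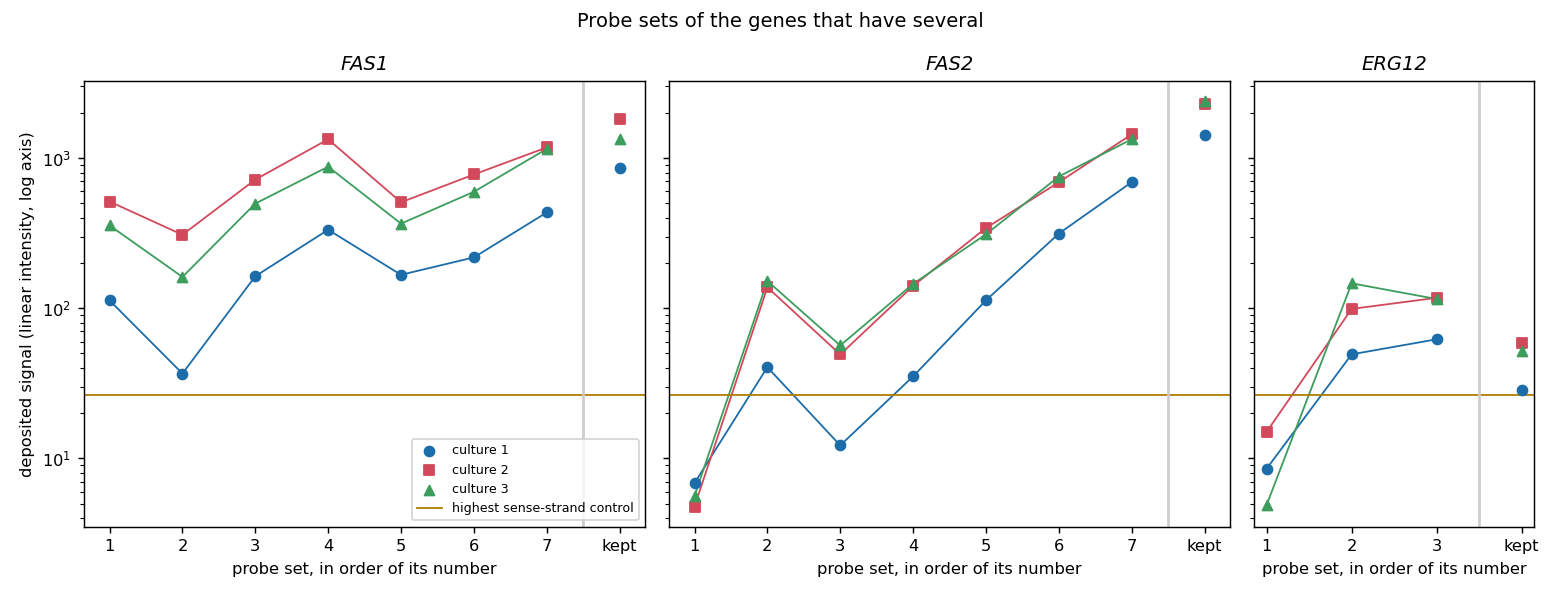
Deposited signal (log axis, linear intensity units) of every probe set of FAS1, FAS2 and ERG12 in cultures 1, 2 and 3, in the order of probe set numbers, with the kept probe set at the right of each panel and the highest sense-strand control (26.3) as a line. Culture 1 is the lowest in all 8 FAS1 probe sets, and its gap to the other cultures is widest for the second, which read 36.7, 308 and 162.

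Other measurements move with these probe sets. For comparison, 181 letter-coded probe sets are not dim and belong to a gene that also has a plain-named one, those of FAS1 and FAS2 included. Their median deviation was -0.14 in culture 1 and 68.5% lay below 0 there. The further FAS1 probe sets, of which the first is plain-named, had a median of -0.47 there. The further FAS2 probe sets that were not dim had a median of -0.36, but the highest of them was at -0.010. Signal at the 3-prime end over that at the 5-prime end, from control probe sets for actin (ACT1), was 1.43, 1.27 and 1.23 in cultures 1, 2 and 3. For the TATA-binding protein gene SPT15 the ratio was 1.94, 1.65 and 1.59, and for the Mediator subunit gene SRB4 it was 3.42, 3.96 and 3.20. Culture 1 thus had the highest ratio for 2 of the 3 control genes. The position of the FAS probe sets along their transcripts is given in no source used here, and the part of RNA quality in their signals was not tested. For ERG12 the kept probe set and 2 of the 3 others read above the controls in every culture. Those 2 ranged over 0.98 and 0.38 (log2) at the common median, against 0.24 for the kept one. The wider of them deviated by -0.20, -0.40 and 0.58 in cultures 1, 2 and 3.

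Regulators and acyltransferases could be followed only in part. ECM22 deviated by -0.26, 0.14 and 0.093 and SUT1 by -0.34, 0.073 and 0.25, both lowest in culture 1 where SUT1 itself read no more than the controls. With ARE2 and UPC2 at control level, their ratios to ARE1 and ECM22 are not read here. In culture 1, 8.41% of genes that are not dim lay lower than ECM22, and 12 of the 14 genes from squalene synthase to ergosterol lay above 0. Each of these values comes from 1 array, and a link between them was not tested.

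Neighbouring genes of the pathways were read by the same limits. Of 4 genes that supply electrons or heme support to the oxygen-using enzymes 1 was bright and none dim. The cytochrome P450 reductase gene NCP1, partner of ERG11, read 296, 576 and 416, with a deviation of -0.13 in culture 3. The cytochrome b5 gene CYB5 had the widest range of the 4, at 0.43, MCR1, for a cytochrome b5 reductase, the highest mean (653 ± 269) and DAP1, for a heme-binding partner of Erg11, the lowest (267 ± 143). Of 16 genes for sterol uptake and transport 2 were bright and 6 dim. PRY1, for a secreted sterol-binding protein, had both the highest mean (1191 ± 384) and, among those not dim, the widest range (0.90), reading 834, 1141 and 1598 with culture 3 the highest. HES1, for an oxysterol-binding protein homologue, had the lowest mean (11.4 ± 4.48). AUS1 and PDR11, the transporters for sterol uptake without oxygen, were dim at 38.0 ± 20.4 and 30.5 ± 11.5. Of 5 genes for sterol ester and sterol acetate turnover none was bright and 2 were dim, with the steryl ester hydrolase gene YEH1 the highest at 186 ± 72.3 and its paralogue YEH2 the lowest at 29.0 ± 9.16. TGL1, for another lipase of steryl esters, had the widest range of those not dim, at 0.36.

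Among fatty acid neighbours, the 5 genes that elongate very long chains included 1 bright and no dim member. All 5 deviated upwards in culture 2, with a median of 0.21, as did 1979 of the 3959 genes that are not dim, and each value comes from 1 array. PHS1, the dehydratase gene of that cycle, ranged over 0.61, reading 154, 543 and 317, the elongase gene ELO3 read 591 ± 306, and its relative ELO2 202 ± 93.6. ELO1 had its highest deviation in culture 2 as well. Of 9 genes for fatty acid activation and acetyl-CoA supply 3 were bright and 3 dim, with the acetyl-CoA synthetase gene ACS1 the highest (2868 ± 834) and the biotin ligase gene BPL1 the lowest (29.6 ± 12.1). ACS1 also had the widest range of those not dim, at 0.34. The lipid regulator list held 12 measured genes, none bright and 3 dim. NSG2, whose protein stabilizes Hmg2, had the highest mean (436 ± 174) and the repressor gene MOT3 the lowest (17.0 ± 5.81). HRD1, the ubiquitin ligase gene known for degrading Hmg2, had the widest range of that list, at 0.93, with -0.43 in culture 1 and 0.50 in culture 2, beside -0.15 and 0.068 for HMG2. None of the genes in these 6 lists of neighbours that were not dim ranged over more than 2-fold, against 3.49% of the 3959 such genes on the array.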

How the data were processed

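Per the labels' protocols, biotin-labelled target made from total RNA went onto an Affymetrix array, 1 for each culture. The deposited values are probe set intensities, and the submitters' processing notes list GCOS without its role. No source used here gives the summary method, background correction or scaling. Of 9335 probe sets, 60 are controls and 6504 have 1 gene in the platform annotation, all matched to RefSeq (assembly R64) by gene ID. Each gene keeps a plain-named probe set (digits and _at) where it has any, and among probe sets of equal standing the one with the higher mean. FAS1, FAS2 and ERG12 each have a further plain-named probe set, so their kept one was picked by its brightness. After a floor of 1, signals were put on the log2 scale, and deviations were centred on the genes that are not dim. Only 3 arrays limit the precision.

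The members, gene lists and limits were chosen with earlier results of these data known. Every member is named, with values by culture for the brightest, dimmest, most and least variable of each role, the oxygen-requiring enzymes and the paralogue or subunit pairs. Of each list of neighbours the genes with the highest mean, the lowest mean and the widest range are named, while NCP1, AUS1, PDR11 and HFA1 were added after values were seen. YSP1 was read as LAM1 and AAC2 as PET9 from synonyms, and COD2, a synonym of COG6, was left out. Quantile normalization and cyclic loess used limma 3.58.1 in R 4.3.3, and other steps Python 3.11.15 with pandas 2.3.3. Centring and ranges were tested on simulated data first. Comparison with brightness bands and the pair ratios under other scalings were added after the data were seen. No test was run, since there is 1 group.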

Additional observations from a re-analysis of the deposited data

How the results depend on the processing

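Counts by brightness depend on the limits, with 25 members over the 75th percentile, 1 under the 10th and 5 under the 50th. The number ranging over 2-fold was 19 as deposited, 2 with no dim limit, 0 with dim set below the 50th percentile and 0 to 1 with a culture left out. The mevalonate median in culture 1 was -0.093 after quantile normalization, -0.094 after cyclic loess, -0.072 with log2(signal + 16) and -0.076 against brightness bands, and in culture 2 it was -0.0018 after cyclic loess, 0.015 with log2(signal + 16), -0.056 with no dim limit and -0.058 with the 10th percentile. The fatty acid median in culture 1 changed sign, to -0.015 after quantile normalization, -0.028 after cyclic loess, -0.18 as the mean over probe sets and -0.042 against brightness bands, which were chosen after seeing the data. The cause was not tested.

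With a culture left out, medians ran from -0.039 to 0.011, -0.011 to 0.0080 and -0.0080 to 0.039 for mevalonate genes in cultures 1, 2 and 3. From squalene synthase to ergosterol they ran from 0.066 to 0.22, -0.066 to 0.0031 and -0.22 to -0.0031, and for fatty acid genes from 0.067 to 0.16, -0.16 to 0.017 and -0.067 to -0.017. The range of the log2 ratio ran from 0.11 to 0.35 for HMG1 and HMG2, 0.34 to 1.69 for ARE1 and ARE2, 0.39 to 1.17 for UPC2 and ECM22, and 0.11 to 0.51 for FAS1 and FAS2, and the HMG1 to HMG2 range was 0.12 after cyclic loess, added after seeing the data. The ARE2 and UPC2 values are at control level. No paired analysis was possible because the cultures form 1 group. Signals at or under 26.3 limit what can be read of ARE2, UPC2 and, in culture 1, SUT1.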

Other observations

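Some genes next to these pathways were read without being part of a comparison. Fatty acid synthesis inside mitochondria makes the precursor of lipoic acid, and of its 8 genes 1 was bright and 3 were dim, the acyl carrier protein gene ACP1 reading 447, 1295 and 794 in cultures 1, 2 and 3. HFA1, the mitochondrial acetyl-CoA carboxylase gene, was dim at 39.3 ± 17.4 (mean ± SD of deposited intensities, n = 3), and CEM1, a ketoacyl synthase gene, was the lowest at 32.9 ± 12.2. Of 9 genes that draw other products from the isoprenoid pathway none was bright and 3 were dim. The farnesyltransferase subunit gene RAM2 was the highest at 264 ± 120.4. HTD2, a dehydratase gene of the same mitochondrial pathway, had its widest range among those not dim, at 0.41. COQ2, of ubiquinone synthesis, had the widest range among those not dim, at 0.72 on the log2 scale with arrays at a common median. SRT1, a dehydrodolichyl diphosphate synthase gene, was the lowest at 7.45 ± 4.40. HFA1 was named after its value was seen.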
